A study of Mus musculus with 12 samples.

Results

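The genes described here encode the proteasome, its activators, its inhibitor and its assembly chaperones. They were taken as every gene of the triceps brachii RNA-Seq table whose symbol began with Psma to Psmg followed by a digit, which gave 45 of 10187 genes. Of these, 7 encode alpha subunits of the 20S core, 7 encode its constitutive beta subunits and 2 its inducible beta subunits (Psmb8 and Psmb10). The 19S regulator is represented by 6 ATPases (Psmc1 to Psmc6), 11 non-ATPase subunits and 3 assembly chaperones (Psmd5, Psmd9 and Psmd10). The remaining genes were 4 activators (Psme1 to Psme4), 1 inhibitor (Psmf1) and 4 chaperones of 20S assembly (Psmg1 to Psmg4). No gene of the table carried the symbol Psma8, Psmb9 or Psmb11.

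The proteasome is the barrel-shaped protease that degrades most ubiquitin-tagged proteins of the cytoplasm and nucleus. Rings of alpha subunits gate the 20S barrel, rings of beta subunits carry the proteolytic sites, and the 19S cap binds ubiquitin chains, removes them and uses ATP to unfold the substrate and feed it in. Other caps, the PA28 complexes and PA200, open the gate without ATP, and interferon induces PA28 alpha and beta together with beta subunits that replace the catalytic ones. In skeletal muscle this system removes contractile and other proteins, and it is known for its part in muscle wasting.

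The study crossed wheel running with loss of myostatin, a secreted inhibitor of muscle growth, in male C57/BL6 mice. Polyadenylated RNA of the triceps brachii, a forelimb muscle, was sequenced from 3 mice in each of 4 groups. Inactive mice kept without a wheel were wild-type (IW) or had reduced myostatin (IM), and mice that ran were of the same genotypes (AW and AM). Every mouse, controls included, was fed tamoxifen (0.025% of the chow by weight) for 6 weeks in all, starting at 4 months of age. The myostatin-reduced mice carried a floxed Mstn gene that tamoxifen-activated Cre recombinase recombines, and the promoter driving Cre is not given in the sources used here. Active mice were moved at 6 months to individual cages with a running wheel for 12 weeks, so the effects of the wheel and of single housing cannot be told apart. Each value is a normalized read count, scaled by the authors to a common level per sample and not divided by gene length.

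The targeted gene separated the genotypes as labelled. Mstn was at 79.7, 138 and 131 in the IW mice and at 110, 90.1 and 80.8 in the AW mice, against 18.3, 17.2 and 21.6 in the IM mice and 16.1, 8.70 and 13.5 in the AM mice. The 6 myostatin-reduced mice therefore lay below the 6 wild-type mice, and their mean was 84.8% lower. The muscle markers Acta1, the skeletal actin, and Ckm, the muscle creatine kinase, were high in all 12 samples, at 27352 to 38677 and 19247 to 30111. Estimated depth was 9024039 to 12184798 reads per mouse in the genes of the table, of which the 45 proteasome genes took 0.41% to 0.447%, or 38407 to 51566 reads. The summed level of 11 slow-fibre markers differed greatly between mice of the same group, from 94.3 to 1370 in IW, 78.3 to 112 in IM, 151 to 1831 in AW and 117 to 1343 in AM.

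Levels of the subunits were compared with each other per kb of the longest annotated transcript. The median of the 45 genes was 43.6 normalized reads per kb, or 26.2 when the length of all annotated exons was used instead, so the levels depend on the transcript model. The subunits of the assembled particle were well expressed. Per kb, the constitutive beta subunits lay between 21.2 (Psmb3) and 169 (Psmb7), the alpha subunits between 9.26 (Psma3) and 119 (Psma6), the 19S ATPases between 38.2 (Psmc2) and 102 (Psmc3) and the other 19S subunits between 24.6 (Psmd11) and 138 (Psmd8). Most of the chaperones had lower levels per kb than the constitutive subunits, though Psmg1 (9.60) and Psmg2 exceeded Psma3. The 19S chaperones lay between 5.96 and 6.89, the 20S chaperones between 5.28 (Psmg4) and 14.1 (Psmg2), and the inhibitor Psmf1, also called PI31, stood at 4.24. Among the activators, PA200 (Psme4) had a level of 95.1 per kb, compared with 26.1 for the nuclear PA28 gamma (Psme3), 19.4 for PA28 alpha (Psme1) and 9.19 for its ring partner PA28 beta (Psme2). The inducible beta subunits were at the low end, with 2.17 per kb for Psmb8 and 7.25 for Psmb10.

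**Figure D1:**
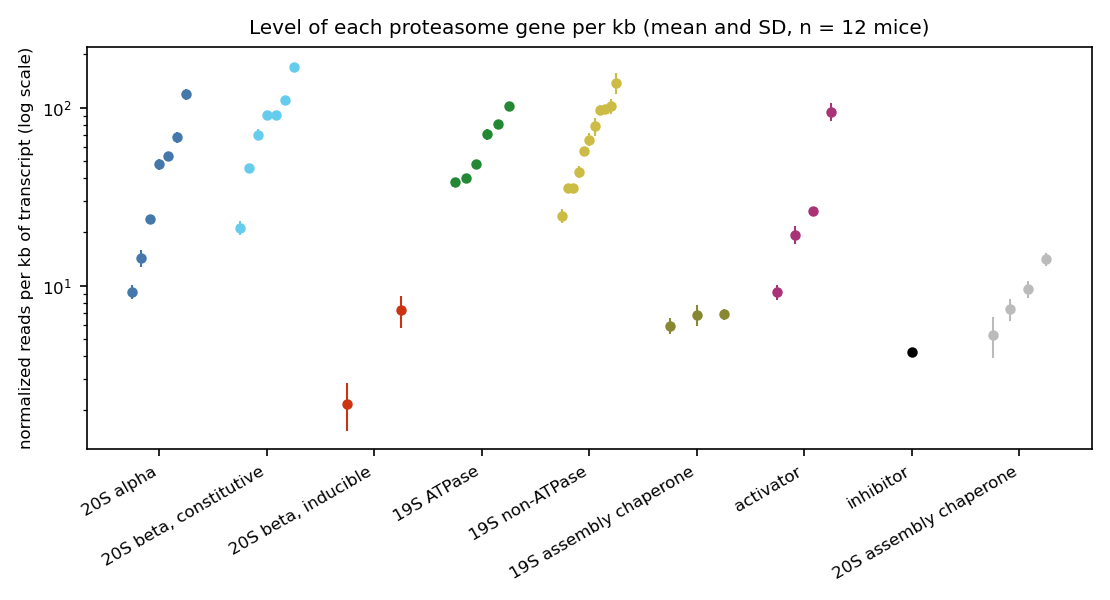
Mean level of each of the 45 proteasome genes over 12 mice, in normalized reads per kb of the longest transcript on a log axis, arranged by role, with SD over mice. Subunits of the core and cap lie mostly above the accessory genes, and Psmb8 (2.17) and Psmf1 (4.24) are among the lowest.

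Wheel running was accompanied by few and small differences among these genes. Of the 45, 39 had a mean of at least 10 normalized reads and were tested with limma. Psme1 and Psma1 were higher in active mice and Psmd8 was lower, at an adjusted p under 0.05. These 3 of 39 (7.69%) compare with 14.5% of all 7247 genes called for activity, 7.99% higher and 6.51% lower. At an unadjusted p under 0.05 there were 7 members (17.9%) and 30.2% of all genes. Values are from bulk tissue, in which fewer cells of a type and less RNA per cell cannot be told apart. The median log2 change of the 39 genes was -0.005, with 18 above 0 and 21 below, and the median over all genes tested was -0.022. The median size of the change, regardless of sign, was 0.039 for the 39 genes and 0.102 for all genes.

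Psme1 (chr14:56196960-56200366 of mm9, plus strand) encodes the alpha subunit of the PA28 ring, which caps the 20S core and favours release of peptides used in antigen presentation. Its normalized read count was 35.5, 35.2 and 34.2 in the IW mice and 31.0, 33.8 and 35.6 in the IM mice. In active mice it was 42.3, 42.2 and 41.3 (AW) and 45.1, 42.2 and 43.2 (AM). All 6 active mice lay above all 6 inactive mice, a separation found in 4.29% of all genes and in no other proteasome gene tested. The same held for separation within each genotype, found in 7.81% of all genes. The mean was 34.2 ± 1.73 (SD, n = 6) in inactive and 42.7 ± 1.33 in active mice, 24.7% higher (log2 change 0.31, SE 0.046, 95% interval 0.21 to 0.41, limma adjusted p = 0.00186). The log2 change was 0.37 in myostatin-reduced mice (AM minus IM, limma adjusted p = 0.00864) and 0.25 in wild-type mice (AW minus IW, limma adjusted p = 0.113), and the difference between these changes was 0.11 (interaction, limma adjusted p = 0.890). In AM minus IM, Psme1 was the 1 member called, against 7.84% of all genes, and 5 members had an unadjusted p under 0.05, against 26.2%. In AW minus IW no member was called by limma, 2 (Psmd8 and Psme1) had an unadjusted p under 0.05 (14.7% of all genes), and 0.0276% of all genes were called.

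Endothelial markers also moved with activity. The log2 changes of all 7 such markers were above 0 (0.36 for Eng to 0.63 for Tie1, median 0.47), and limma called 5 of them (Pecam1, Kdr, Tek, Tie1 and Flt1), against 7.99% of all genes called higher. Their summed level was 301 to 412 in IW, 277 to 298 in IM, 313 to 530 in AW and 362 to 609 in AM, with none at 0. With the endothelial score as a covariate, a model chosen after the data were seen, the log2 change of Psme1 was 0.34 (limma adjusted p = 0.0619), and that of AM minus IM was 0.42 (limma adjusted p = 0.457). In that model 6 of all 7247 genes were called for activity and 0 for AM minus IM (540 at an unadjusted limma p under 0.05). None of the 5 macrophage and other immune markers tested was called for activity by limma (0 at an unadjusted p under 0.05), and their summed level was 102 to 127 in IW, 116 to 157 in IM, 112 to 159 in AW and 105 to 133 in AM. Of 6 fibroblast markers, limma called 0 for activity and 3 had an unadjusted p under 0.05 (30.2% of all genes), with a median log2 change of -0.23. The part of any of these cells in the Psme1 difference was not tested. Exons of Psme1 share 14 bases with Fam158a on the opposite strand, and whether counting used strand is not stated.

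Psma1 encodes an alpha subunit of the gated ring (chr7:121408120-121419632 of mm9, minus strand). It was at 84.5, 74.4 and 83.2 in IW, 75.7, 72.4 and 75.2 in IM, 85.4, 84.4 and 90.2 in AW and 83.9, 83.1 and 89.2 in AM. The groups did not overlap in myostatin-reduced mice and met in wild-type mice, where IW 1 lay just above AW 2. The mean rose from 77.6 ± 5.01 to 86.0 ± 2.93 (SD, n = 6 each), by 10.9% (log2 change 0.15, SE 0.046, limma adjusted p = 0.0480). It was not called with the endothelial score (0.10, limma adjusted p = 0.510) or the slow-fibre score (0.13, limma adjusted p = 0.173) in the model, with no filter (limma adjusted p = 0.0598) or with median-ratio scaling (limma adjusted p = 0.0507). Other alpha subunits were not called, and the log2 changes of the 7 ran from -0.10 to 0.15 with a median of 0.02.

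Psmd8, also called Rpn12, is a subunit of the lid of the 19S cap (chr7:29959207-29965692 of mm9, minus strand). Its values were 201, 238 and 259 in IW, 216, 221 and 237 in IM, 210, 169 and 195 in AW and 179, 171 and 215 in AM. AM lay below IM in every mouse, whereas in wild-type mice IW 1 was lower than AW 1. The mean fell from 228.7 ± 20.2 to 189.8 ± 19.7 (SD, n = 6 each), a change of -17.0% (log2 change -0.27, SE 0.078, limma adjusted p = 0.0383). In a model that also held the slow-fibre score, added once the data had been seen, the log2 change was -0.15 (limma adjusted p = 0.220), and it was -0.23 (limma adjusted p = 0.379) with the endothelial score. The log2 changes of all 11 slow-fibre markers with activity were above 0 (1.04 for Csrp3 to 2.68 for Myh7, median 1.80). By limma 5 had an unadjusted p under 0.05 and 1 (Casq2) was called, and none was at 0. All 8 skeletal muscle markers, mostly genes of fast fibres, had log2 changes below 0 (median -0.18), and limma called Myh4 (-0.57, adjusted p = 0.0127) and Actn3 (-0.49, adjusted p = 0.0186) lower. Their summed level was 170500 to 212100 in IW, 227500 to 239600 in IM, 144200 to 180600 in AW and 153500 to 203800 in AM. The part of either marker list in the Psmd8 difference was not tested.

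The calls of Psma1 and Psmd8 depended on single mice, and that of Psme1 did not. Psme1 remained called without any 1 mouse, with a log2 change of 0.29 to 0.33. Psma1 and Psmd8 were each lost in 9 of these fits, and Psme1 was the 1 proteasome gene called without IW 2, IW 3, IM 1, IM 2, IM 3, AW 2, AW 3 or AM 2. Over the same fits the log2 change was 0.12 to 0.17 for Psma1 and -0.32 to -0.23 for Psmd8. Over all genes, leaving out 1 mouse gave 552 to 1488 calls, against 1051 with every mouse.

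**Figure D2:**
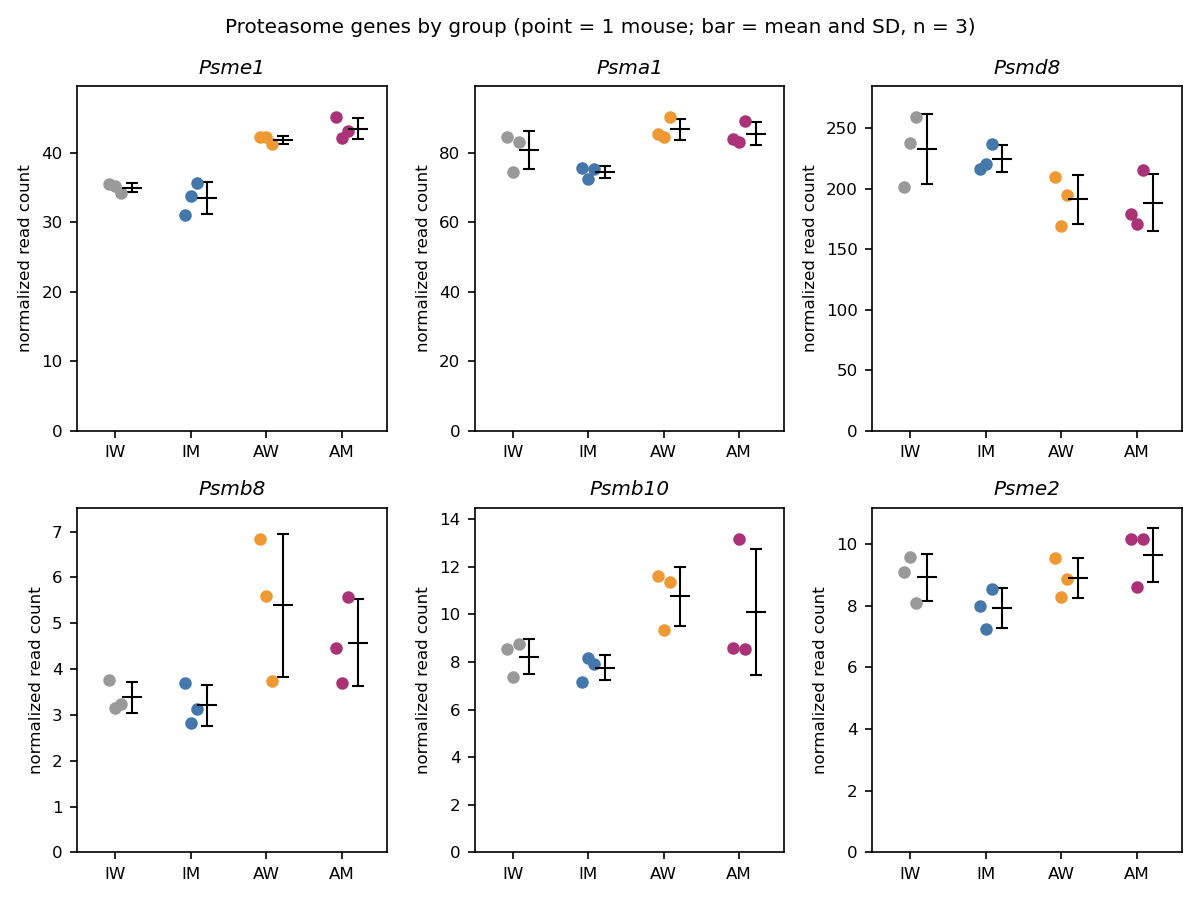
Normalized read count of Psme1, Psma1, Psmd8, Psmb8, Psmb10 and Psme2 in each mouse by group, with one point per mouse and the group mean and SD (n = 3). The 6 active mice lie above the 6 inactive mice for Psme1 (41.3 to 45.1 against 31.0 to 35.6), and in the other 5 panels some active mice overlap the inactive ones.

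The promoters of the 3 called genes and of the inducible subunit Psmb8 are shown, the latter because limma called it for activity when no filter on low values was applied. They are RefSeq windows of build GRCm38.p6, from 250 bases before to 50 after the annotated start, read 5′ to 3′ on the strand of the gene. Capitals mark a match to the core of the interferon-stimulated response element (GAAA, any 2 bases, then GAAA again) or of the gamma-activated site (TTCNNNGAA), searched on both strands.
Psme1, chr14:55578244-55578543, plus strand: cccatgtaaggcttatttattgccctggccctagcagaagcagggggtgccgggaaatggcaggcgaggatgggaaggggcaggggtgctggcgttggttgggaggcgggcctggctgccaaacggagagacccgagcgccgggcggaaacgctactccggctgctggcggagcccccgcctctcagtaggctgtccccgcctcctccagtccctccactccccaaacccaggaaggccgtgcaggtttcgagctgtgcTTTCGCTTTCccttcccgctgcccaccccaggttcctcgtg
Psma1, chr7:114276067-114276366, minus strand: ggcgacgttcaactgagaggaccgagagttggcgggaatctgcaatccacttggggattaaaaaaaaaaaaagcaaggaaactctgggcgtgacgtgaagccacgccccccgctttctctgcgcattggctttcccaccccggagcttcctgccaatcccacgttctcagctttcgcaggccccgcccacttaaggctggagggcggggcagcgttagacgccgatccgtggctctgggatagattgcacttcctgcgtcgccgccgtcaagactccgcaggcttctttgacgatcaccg
Psmd8, chr7:29180624-29180923, minus strand: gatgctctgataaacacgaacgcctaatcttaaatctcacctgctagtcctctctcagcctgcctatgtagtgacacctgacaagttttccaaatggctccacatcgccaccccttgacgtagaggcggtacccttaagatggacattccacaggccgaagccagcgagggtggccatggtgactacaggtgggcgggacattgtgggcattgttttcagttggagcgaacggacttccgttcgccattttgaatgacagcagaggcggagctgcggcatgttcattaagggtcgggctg
Psmb8, chr17:34197945-34198244, plus strand: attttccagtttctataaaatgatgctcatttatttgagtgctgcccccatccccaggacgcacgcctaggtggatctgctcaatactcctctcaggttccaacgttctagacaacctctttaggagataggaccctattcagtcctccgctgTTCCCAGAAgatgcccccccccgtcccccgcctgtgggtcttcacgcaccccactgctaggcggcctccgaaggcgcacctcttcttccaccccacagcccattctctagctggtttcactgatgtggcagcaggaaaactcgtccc
The Psme1 window held the interferon-stimulated core 9 bases after the start, on the opposite strand, and the Psmb8 window held the gamma-activated core 97 bases before the start. Neither motif occurred in the windows of Psma1 and Psmd8. In all, 38 of the 45 genes matched 41 windows, and the interferon-stimulated core was in 5 of them (12.2%, those of Psmb3, Psmd4, Psmd9, Psme1 and Psmg4), compared with 2.81% of 9525 windows of the genes in the table. The gamma-activated core was in 7.32% against 6.68%, the ETS core CCGGAAG in 36.6% against 17.4%, and the antioxidant response core TGACNNNGC, of the kind that Nfe2l1 binds, in 14.6% of both. These matches were counted after expression values had been seen, and they describe letters, not bound sites.

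The catalytic beta subunits differed little with activity. Psmb5, which carries the chymotrypsin-like site, was at 38.0, 37.7 and 41.1 in IW, 40.5, 40.1 and 40.7 in IM, 46.0, 38.5 and 38.6 in AW and 39.6, 38.8 and 41.3 in AM (log2 change 0.02, limma adjusted p = 0.787). The groups overlapped, and AW 1 was the highest mouse. Psmb6, with the caspase-like site, was at 104, 112 and 107 in IW, 107, 102 and 106 in IM, 114, 103 and 103 in AW and 100, 104 and 113 in AM (log2 change -0.004, limma adjusted p = 0.967). Psmb7, with the trypsin-like site, was at 195, 205 and 197 in IW, 196, 197 and 190 in IM, 197, 196 and 197 in AW and 193, 188 and 203 in AM (log2 change -0.006, limma adjusted p = 0.928). Psmb6 and Psmb7 overlapped between all groups. Psmb7 varied least of the tested members, its highest mouse being 1.09 times its lowest. The 7 constitutive beta subunits had log2 changes of -0.006 to 0.11.

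Their inducible counterparts were scarce and did not reach the level required for the test. Psmb8, which replaces Psmb5 in the immunoproteasome, was at 3.77, 3.14 and 3.24 in IW, 3.69, 2.82 and 3.12 in IM, 6.84, 5.60 and 3.73 in AW and 4.45, 3.70 and 5.58 in AM, from 31 to 79 estimated reads per mouse. The 6 active mice overlapped the inactive mice at AW 3 and AM 2, which were just below IW 1, the highest inactive mouse. The mean was 3.30 ± 0.365 in inactive and 4.98 ± 1.24 in active mice (SD, n = 6 each), 51.1% higher. When no filter on low values was applied, the log2 change was 0.46 (SE 0.133, 95% interval 0.17 to 0.74, limma adjusted p = 0.0449). Exons of Psmb8 share 187 bases with Gm20496 on the opposite strand.

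Psmb10, which replaces Psmb7, was at 8.53, 7.37 and 8.76 in IW, 7.17, 8.18 and 7.90 in IM, 11.6, 9.34 and 11.4 in AW and 8.57, 13.2 and 8.56 in AM. AW lay above IW, and AM lay above IM, though AM 1 and AM 3 were below the highest IW mouse. The mean was 30.6% higher in active mice (without the filter, log2 change 0.33, limma adjusted p = 0.0631). Per kb of transcript, Psmb8 amounted to 3.98% ± 0.490 of Psmb5 in IW, 3.63% ± 0.488 in IM, 5.95% ± 1.33 in AW and 5.22% ± 0.912 in AM (SD, n = 3). Psmb10 amounted to 3.78%, 3.65%, 4.995% and 4.77% of Psmb7 in the same order. The constitutive member of both pairs was by far the more abundant message in every mouse.

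Psme2, the PA28 partner of Psme1, also stood under the level for the test. It was at 9.07, 9.57 and 8.09 in IW, 7.99, 7.23 and 8.52 in IM, 9.54, 8.27 and 8.87 in AW and 10.2, 8.61 and 10.1 in AM, so that active and inactive mice overlapped in wild-type mice and not in myostatin-reduced mice (without the filter, log2 change 0.13, limma adjusted p = 0.324). Per kb, Psme2 was 52.6% of Psme1 in IW, 48.9% in IM, 43.8% in AW and 45.7% in AM. The mean over all mice was 47.7%, or 29.0% with the length of all annotated exons.

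The other activators and the inhibitor were not called. Psme3 was at 65.2, 73.0 and 71.2 in IW, 63.5, 66.8 and 69.5 in IM, 69.2, 65.9 and 72.2 in AW and 72.2, 70.1 and 77.0 in AM (log2 change with activity 0.06, limma adjusted p = 0.438). Psme4, whose product PA200 is a large single-chain cap, was at 592, 701 and 571 in IW, 710, 709 and 638 in IM, 645, 563 and 564 in AW and 667, 500 and 548 in AM (log2 change -0.17, limma adjusted p = 0.164). Its inactive and active mice overlapped in both genotypes. Psmf1 was at 16.7, 15.0 and 16.8 in IW, 16.9, 16.5 and 16.2 in IM, 16.9, 14.2 and 17.2 in AW and 14.8, 16.5 and 16.0 in AM (log2 change -0.04, limma adjusted p = 0.721).

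The 19S cap gave no call besides Psmd8. The 6 ATPases, which unfold the substrate, had log2 changes with activity of -0.04 to 0.07. Of the 11 non-ATPase subunits, 9 were below 0, with a median of -0.06 and a range of -0.27 to 0.06. Only 44.5% of all genes tested were above 0, and 35.3% of those with a mean of at least 50, a level that all 11 reached. Psmd1 (Rpn2, a scaffold of the base), Psmd4 (Rpn10, a ubiquitin receptor) and Psmd11 (Rpn6, a lid subunit) had log2 changes of -0.16, -0.15 and -0.14 (limma adjusted p = 0.109, 0.125 and 0.121). With sample weights Psmd1, Psmd4 and the activator Psme4 were also called lower, Psmd4 likewise without AW 1 or AM 3, and Psme4 without AM 1. The remaining untested members were the chaperones Psmg3, Psmg4 and Psmd10, with log2 changes of 0.01, 0.14 and 0.04 when no filter was applied (limma adjusted p for Psmg4 0.612). Psmd10, with a mean of 9.75, lay just outside the level for the test and Psmg1, with 10.03, just inside.

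Myostatin reduction was accompanied by no call among these genes. By limma 0 of 39 members were called, 3 (7.69%) had an unadjusted p under 0.05, and 5.78% of all genes were called (22.5% at an unadjusted p under 0.05). The median log2 change was 0.011, with 25 genes above 0 (64.1%) and 14 below, against -0.005 and 48.3% above 0 over all genes. Within inactive mice (IM minus IW, 2.51% of all genes called) and within active mice (AM minus AW, 0.207% called) limma called no member, with 2 and 1 members at an unadjusted p under 0.05 (17.4% and 12.3% of all genes). No member had its genotypes apart within both activity levels, as 5.37% of all genes did, or over 6 against 6 mice, as 2.39% did.

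The 3 members with the smallest p for genotype were Psmd6, Psmd1 and Psma6. Psmd6 (Rpn7, a lid subunit) was at 131, 146 and 135 in IW, 152, 150 and 156 in IM, 136, 121 and 120 in AW and 143, 130 and 162 in AM (log2 change 0.17, limma adjusted p = 0.103). The IM mice lay above the IW mice, whereas AM and AW overlapped. Psmd1 was at 234, 251 and 226 in IW, 288, 261 and 289 in IM, 237, 215 and 208 in AW and 257, 209 and 261 in AM, with the same arrangement (log2 change 0.19, limma adjusted p = 0.1097). Exons of Psmd1 share 405 bases with Armc9 on the same strand and 252 with Htr2b on the opposite one. Psma6, an alpha subunit, was at 113, 118 and 121 in IW, 133, 131 and 132 in IM, 121, 113 and 123 in AW and 120.3, 120.2 and 140 in AM (log2 change 0.13, limma adjusted p = 0.144). Here too IM was separate from IW and AM overlapped AW. These 3 genes were picked by their p, and the share of all genes with IM and IW apart was not counted. Without AM 2, the lowest myostatin-reduced mouse for Psmd1 and Psmd6, both of these genes were called. When the model also held the slow-fibre score, the log2 changes of Psmd6 and Psmd1 were 0.10 and 0.12 (limma adjusted p = 0.183 and 0.229).

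By role, 9 of the 11 non-ATPase subunits of the 19S cap had a log2 change above 0 with myostatin reduction (range -0.03 to 0.19, median 0.06), as did 5 of the 6 ATPases (median 0.03). Of all genes tested 48.3% were above 0, and 49.5% of those with a mean of at least 50. The alpha and constitutive beta subunits had medians of 0.02 and -0.02. Fibre markers moved with genotype as well. All 8 skeletal muscle markers had log2 changes above 0 (median 0.21), of which limma called 1 (Actn3, 0.47, adjusted p = 0.0392), and all 11 slow-fibre markers were below 0 (median -1.30), of which limma called 0 and 1 had an unadjusted p under 0.05. When the model also held the slow-fibre score, the median of the 39 members was -0.023 in place of 0.011, and the part of fibre type in these values was not tested.

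The interaction of activity and genotype gave 0 calls by limma among the 39 members, with 0 at an unadjusted p under 0.05, against 0.0% of all genes called and 4.1% at an unadjusted p under 0.05. The smallest p values belonged to Psme3 (log2 difference 0.15), Psme4 (-0.20) and Psme1 (0.11), each with a limma adjusted p of 0.890. Without single mice the difference was 0.11 to 0.19 for Psme3, -0.32 to -0.11 for Psme4 and 0.06 to 0.16 for Psme1. With the endothelial covariate, chosen after the data were seen, that of Psme4 changed sign, to 0.0436.

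The intervals show how large a change these data leave room for. For activity and for genotype, the 95% interval of each of the 39 genes lay within 0.5 of 0 on the log2 scale, a 1.41-fold change, as it did for 89.0% and 92.4% of all genes. For the interaction this held for 37 of 39 (94.9%), all but Psme4 and Psmg1, against 66.3% of all genes. The limit of 0.5 was chosen after the values had been seen. It does not hold for every untested gene. Without the filter, the activity intervals of Psmb8 (0.169 to 0.744) and Psmb10 (0.104 to 0.565) reached beyond 0.5, and those of the other untested genes did not. For genes whose mean reached 50, these shares over all genes were 88.8%, 93.7% and 76.6%.

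**Figure D3:**
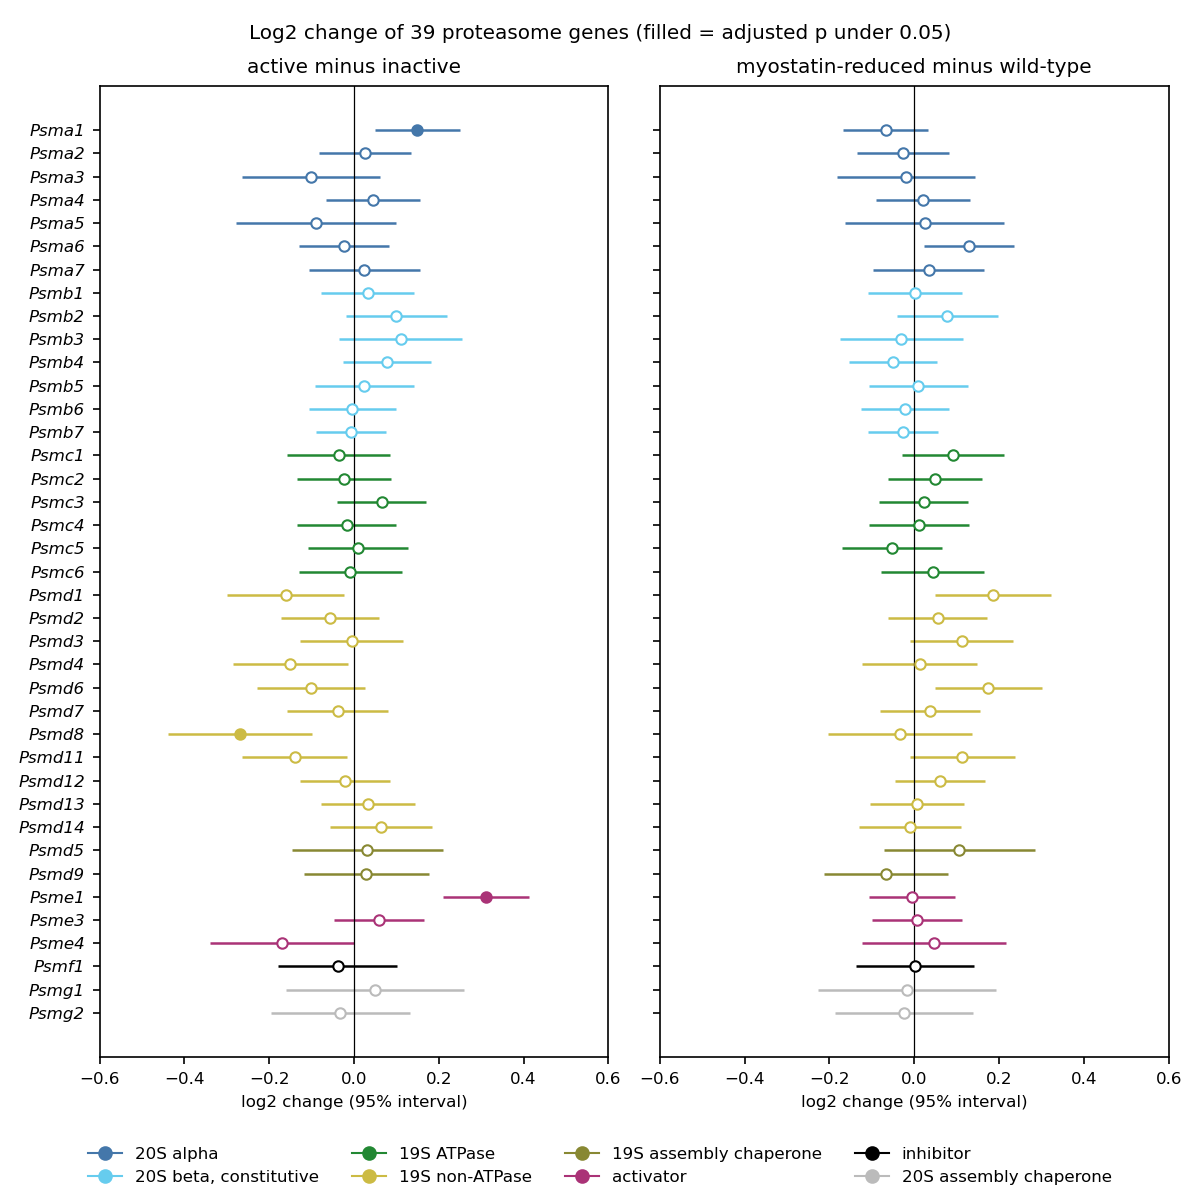
Log2 change of each of the 39 tested proteasome genes with activity and with myostatin reduction, with 95% limma intervals, colored by role and filled where the adjusted p was under 0.05. Filled points are Psme1 and Psma1 above 0 and Psmd8 below 0 in the activity panel, and no point is filled in the panel for myostatin reduction.

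Variation between mice was compared with that of other genes. The median within-group SD of the 39 members was 0.09 on the log2 scale, compared with 0.122 over 7081 genes within the members' range of expression, and 32 of the 39 members lay below that median. Over all 12 mice the highest value was 1.24 times the lowest at the median member and 1.41 times at the median gene. The ratio was under 1.5 in 38 of 39 members (97.4%) and in 65.1% of all genes, and the exception was Psmd8, at 1.53. The members are on average more abundant than other genes, since 29 of 39 have a mean of at least 50, as do 2556 of the 7247 genes. Among genes at that level, the median SD was 0.089 for members and 0.104 for all, and the median ratio was 1.22 and 1.36.

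What variation there was tended to be shared. With group means removed, the correlation between a pair of members over the 12 mice had a median Pearson r of 0.482 over 741 pairs, 91.5% of them positive, compared with 0.01 and 50.8% for pairs drawn from all genes. Members share the library and scaling of each mouse, as all genes do, so these values are a description. Within roles, the median r was 0.639 among the ATPases (15 of 15 pairs positive), 0.617 among the non-ATPase subunits (55 of 55), 0.604 among the alpha subunits (21 of 21) and 0.38 among the constitutive beta subunits (19 of 21).

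**Figure D4:**
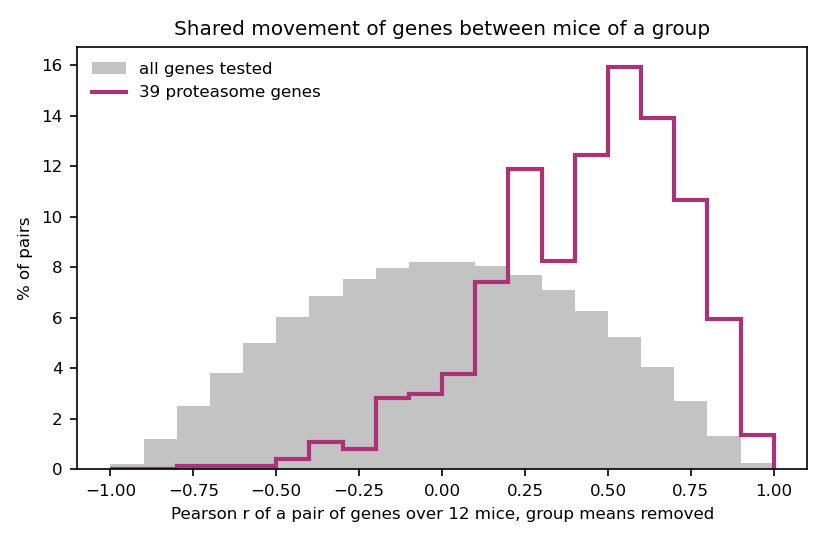
Distribution of Pearson r between pairs of genes over 12 mice after removal of group means, as a percentage of pairs, for the 741 pairs of proteasome genes and for pairs from all tested genes. The proteasome pairs center near 0.482 and the pairs from all genes near 0.01.

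The mice that stood high or low came from both activity groups and both genotypes. AM 3 had 36 of 39 members above their mean of 12 mice, IM 3 had 32 and AW 1 had 31, with median log2 deviations of 0.112, 0.088 and 0.065. AW 2, AM 2 and IW 1 were at the other end, with 7, 10 and 11 members above the mean and deviations of -0.076, -0.06 and -0.043. The median deviation of all genes lay between -0.028 and 0.027 in every mouse. The summed slow-fibre markers were 117, 88.6 and 151 in AM 3, IM 3 and AW 1, and 1638, 1343 and 1370 in AW 2, AM 2 and IW 1. The lowest and highest sums were in other mice, IM 1 (78.3) and AW 3 (1831), whose median deviations were -0.019 and -0.026, with 16 and 17 members above the mean. The markers' part in the shared variation was not tested.

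**Figure D5:**
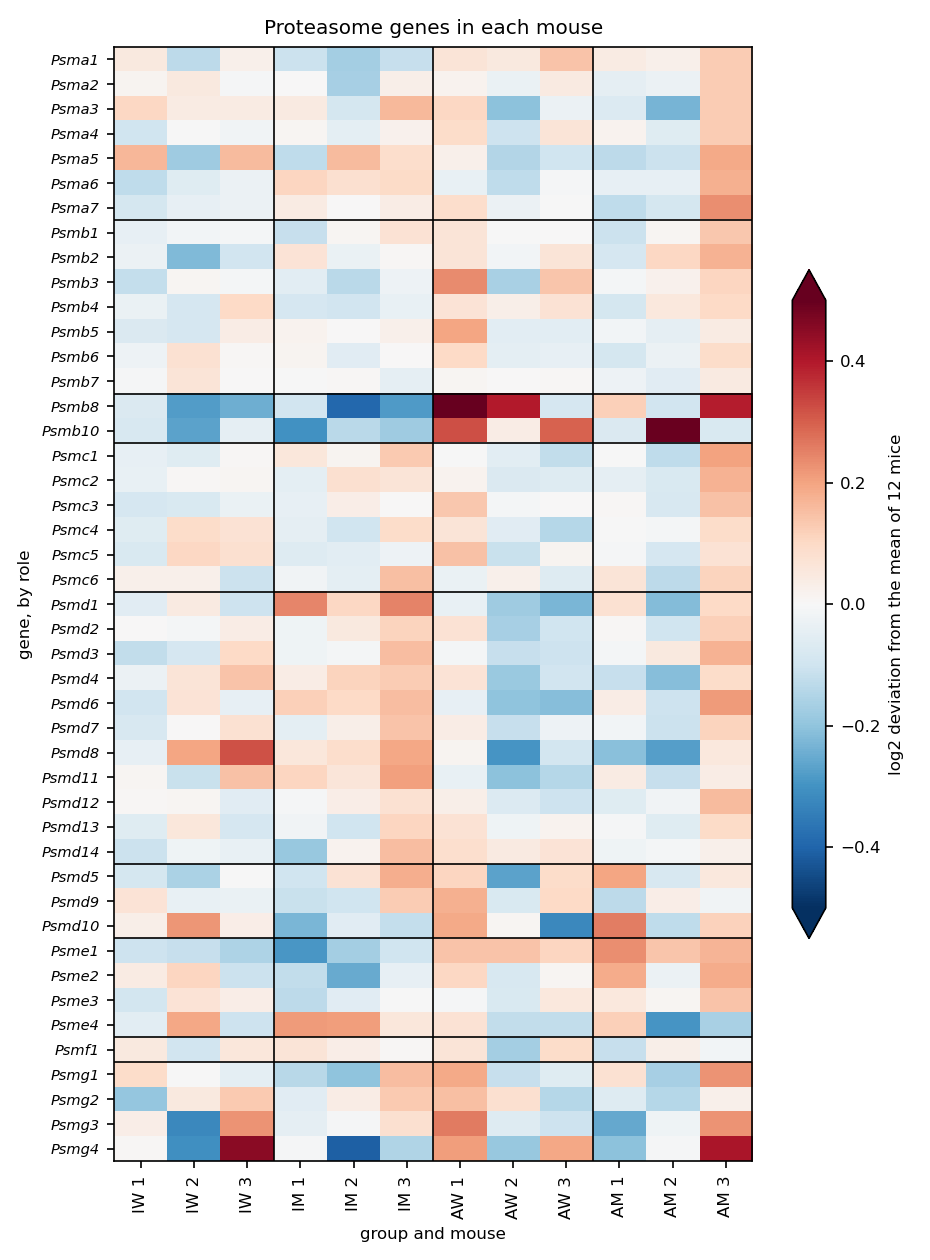
Log2 deviation of each proteasome gene, tested or not (vertical, by role), from its mean of 12 mice in each mouse (horizontal, by group). AM 3 is above the mean in 36 of the 39 tested genes and AW 2 in 7 of 39, whereas most genes show no block by group.

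Genes that act with the proteasome were counted in the same fit, in which 14.5% of all genes were called for activity. Among 16 tested partners, such as the 20S maturation factor Pomp and the ubiquitin shuttles, limma called 1. This was Zfand5, which binds the 26S proteasome and stimulates it, at 315, 312 and 323 in IW, 308, 340 and 346 in IM, 298, 302 and 281 in AW and 267, 268 and 304 in AM (log2 change -0.18, limma adjusted p = 0.0319). It fell with activity, and the groups did not overlap within either genotype. Among 8 transcription factors and processing enzymes, Ddi2, the protease that releases the proteasome gene activator Nfe2l1 from its membrane-bound form, was called. Ddi2 was at 20.7, 20.02 and 22.3 in IW, 21.0, 25.3 and 23.4 in IM, 17.7, 15.7 and 11.9 in AW and 18.3, 16.3 and 11.5 in AM, so each active mouse lay below each inactive mouse (log2 change -0.52, SE 0.114, limma adjusted p = 0.0109). Nfe2l1 itself had a log2 change of -0.02 (limma adjusted p = 0.811).

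The other pathway lists held no call for activity by limma. Of 3 ubiquitin and activation genes tested, 0 were called (0 at an unadjusted p under 0.05). Of 7 genes of the interferon response and antigen processing, leaving out the proteasome genes themselves, 0 were called (2 at an unadjusted p under 0.05), with a median log2 change of 0.18. Of 4 muscle ubiquitin ligases 0 were called (1 at an unadjusted p under 0.05), and the atrophy ligases Fbxo32 and Trim63 had log2 changes of -0.24 and -0.25 (limma adjusted p = 0.249 and 0.0857). For genotype, limma called none in these lists, with 2 partners, 1 transcription or processing gene, 2 ubiquitin genes, 0 interferon genes and 1 ligase at an unadjusted p under 0.05. Over all genes these shares were 5.78% called and 22.5% at an unadjusted p under 0.05.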

How the data were processed

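Polyadenylated RNA of 12 triceps brachii samples, 1 per mouse, was sequenced. Per the labels and the study's methods, the authors mapped reads with CASAVA (version not given in the sources used here) to mm9 and counted them in RefSeq exons. Values were deposited as a signal, meaning normalized read counts that the authors had scaled to an equal trimmed mean, without division by length. Every gene's highest group mean was at least 3.0. Strand use was not stated.

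Groups and replicate numbers came from the sample titles. The test was run on log2(value + 1), which understates changes of low genes, for the 7247 genes with a mean of at least 10 (R 4.3.3, limma 3.58.1). A mean per group was fitted to all 12 samples with an eBayes trend. The 7 contrasts were activity and genotype, each averaged over the other factor, their interaction and the 4 pairwise differences within a genotype or activity level. P-values were Benjamini-Hochberg adjusted over all genes within a contrast, with a call under 0.05.

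Each library's depth came from the spacing of its low values, 0.077 to 0.105 per read, so that 3 reads equal 0.231 to 0.316 (counting error only). Whole multiples of the step (within 0.03 of a step beyond rounding) made up 89.7% to 91.8% of values under 5 and 70.5% to 73.1% of those from 20 to 50, so whole reads were not recovered and no count test was run. The lowest member, Psmg4, had 21 to 43 estimated reads per mouse.

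Values in every mouse are given for called members, the 3 members with the smallest p in each main contrast, the catalytic and inducible beta subunits, the activators and the inhibitor. Members and lists were chosen with earlier results of these data known. Coordinates of genes are mm9. Same-numbered mice did not deviate together (correlations -0.605 to 0.484), so numbers were not taken as pairs. The fits were tested on simulated data, and figures and summaries used Python 3.11.15 with pandas 2.3.3 and matplotlib 3.10.9. Alternatives were another pseudocount, no filter, a mean of at least 50, median-ratio scaling, sample weights, the replicate block, leaving out each mouse, and, chosen after seeing the data, slow-fibre and endothelial covariates.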

Additional observations from a re-analysis of the deposited data

How the results depend on the processing

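The counts of proteasome genes called moved as follows, and the cause was not tested. The share of all genes called is given with each, since it moved too. For activity, 3 proteasome genes (14.5% of all genes) became 6 with sample weights (2 higher, 4 lower, with Psmd1, Psmd4 and Psme4 gained, 24.0% of all genes), 2 with the median-ratio scaling (Psmd8 and Psme1, 15.6%), 2 with a mean of at least 50 (Psma1 and Psmd8, Psme1 not being tested, 30.6%), 1 (Psme1) with the slow-fibre covariate (5.53%) and 0 with the endothelial covariate (0.0828%), in which 1 had an unadjusted limma p under 0.05. Without single mice the count was 1 to 4 (7.62% to 20.5%), the 4 arising without AW 1. Without a filter, Psmb8 replaced Psma1 (10.7%). For genotype, the count of 0 (5.78%) became 1 with sample weights (Psmd6, 8.39%), 1 with the endothelial covariate (Psmd1, 8.51%) and 0 to 2 without single mice (2.51% to 7.91%), the 2 arising without AM 2 (6.50%). For AW minus IW, 0 (0.0276%) became 1 with sample weights (Psme1, 5.73%), and it remained 0 without single mice (0.0% to 2.73%). For AM minus IM, 1 (7.84%) became 0 with the endothelial covariate (0.0% of all genes). Psma1 was the 1 called there when a mean of 50 was required, Psme1 not being tested (20.3%). Without single mice the count for AM minus IM was 1 to 2 (1.19% to 15.2%), the 2 (Psme1 and Psme4) arising without AM 1 (15.2%). The interaction of Psme4 reversed to 0.0436 with the endothelial covariate, from -0.20. The median level per kb moved from 43.6 to 26.2 with the union of exons.

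With the replicate block, the calls were 3 for activity (14.9% of all genes), 0 for genotype (5.02%), 0 for the interaction (0.0%) and 1 for AM minus IM (8.67%). Pairing by number therefore changed no call among the proteasome genes. Over all alternatives the log2 change of Psme1 with activity was 0.29 to 0.34 (adjusted p 0.000716 to 0.0619, called in 18 of 19). That of Psmd8 was -0.32 to -0.15 (adjusted p 0.0151 to 0.379, called in 9 of 20) and that of Psma1 0.10 to 0.17 (adjusted p 0.0237 to 0.510, called in 7 of 20). Depth limits the 6 untested genes, of which Psmb8 had 31 to 79 estimated reads per mouse.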

Other observations

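Exons of Psmd13, a lid subunit of the 19S cap, share 152 bases with Sirt3, a mitochondrial deacetylase on the opposite strand. Sirt3 was higher in active mice (log2 change 0.49, limma adjusted p = 0.00401), whereas Psmd13 had a log2 change of 0.03 (limma adjusted p = 0.700). In all, 10 of the 45 proteasome genes share exon bases with another gene.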
